A study of Mus musculus with 6 samples.

Results

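snoRNA genes carried 1599 of the 178779 YTHDC1 peaks listed for 6 LACE-seq libraries. A peak was counted when it overlapped a mouse snoRNA gene of the mm9 annotation (GENCODE vM1) by at least 1 nt on the strand of the RNA, which in these files is the strand opposite to the one listed. The peaks fell on 327 of 1552 annotated snoRNA genes. Of the libraries, 4 came from ASC-48 hr, muscle satellite cells (the stem cells of skeletal muscle) activated by 48 hr in culture, made up of biological replicates B1 and B2 with technical replicates T1 and T2 of each. The other 2, labelled bio1 and bio2, came from C2C12, a mouse myoblast line. All 6 were labelled WT and used the same antibody to YTHDC1 (ab122340), without other treatment than the UV light that fixes protein to RNA; the mouse strain of the ASC libraries is not given in the sources used here. LACE-seq reads the places where reverse transcription stops at a crosslinked nucleotide. Peaks were called per library in bins of 20 nt, and the value of a peak is its number of reads per bin, averaged over the bins of a wider peak. No library without the antibody and no RNA level of the snoRNAs was analysed here, so more binding and more snoRNA cannot be told apart.

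snoRNAs are short, stable nucleolar RNAs that mostly sit in the introns of other genes and are cut out after splicing. Box C/D snoRNAs, named for their C and D sequence boxes, guide 2′-O-methylation of rRNA together with fibrillarin. H/ACA snoRNAs fold into hairpins that end in an ACA box and guide pseudouridylation together with dyskerin. In Cajal bodies, scaRNAs guide either modification of snRNAs. A few, such as U3, U8 and U17 (Snora73), are needed for the cutting of pre-rRNA. YTHDC1 is the nuclear reader of m6A, a methylated adenosine of RNA.

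The sequences of 7 genes on which the results turn are shown first, in the sense of the RNA and with DNA letters (mm9). Capitals mark the bases inside a peak shared by the libraries of a cell type, which is ASC for the first and C2C12 for the rest. The first had the highest ASC mean and the second the highest C2C12 mean, the third was the highest in its host Gas5, and the 2 SNORD50 genes have the same 72 bases but lie on opposite strands of chromosome 9. The last pair shows peaks on minus-strand genes.
U3 in Tmem62, chr2:120829825-120830037, plus strand: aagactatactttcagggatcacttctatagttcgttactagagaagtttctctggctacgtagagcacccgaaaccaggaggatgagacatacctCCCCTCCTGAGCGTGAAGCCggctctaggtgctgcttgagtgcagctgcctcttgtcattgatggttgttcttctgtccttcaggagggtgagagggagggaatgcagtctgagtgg
SNORA55 in Pabpc4, chr4:122968587-122968717, plus strand: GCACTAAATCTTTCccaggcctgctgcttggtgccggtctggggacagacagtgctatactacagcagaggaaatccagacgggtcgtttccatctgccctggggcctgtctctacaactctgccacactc
Snord47 in Gas5, chr1:162968213-162968289, plus strand: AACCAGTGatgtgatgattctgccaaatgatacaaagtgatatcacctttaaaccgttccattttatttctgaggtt
SNORD50 in Snhg5, chr9:88416367-88416438, minus strand: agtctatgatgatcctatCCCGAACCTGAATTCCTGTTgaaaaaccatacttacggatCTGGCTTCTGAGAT
SNORD50 in Gm17683, chr9:88970174-88970245, plus strand: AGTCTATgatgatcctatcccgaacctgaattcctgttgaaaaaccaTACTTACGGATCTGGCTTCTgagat
snoU6-77 in Eif4a1, chr11:69482354-69482497, minus strand: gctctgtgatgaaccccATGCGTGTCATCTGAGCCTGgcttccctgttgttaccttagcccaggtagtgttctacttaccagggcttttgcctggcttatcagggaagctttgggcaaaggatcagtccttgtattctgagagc
Snord33 in Rpl13a, chr7:52382234-52382317, minus strand: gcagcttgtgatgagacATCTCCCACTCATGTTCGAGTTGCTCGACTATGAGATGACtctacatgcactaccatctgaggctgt

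Peaks on snoRNA genes lay almost without exception on the strand of the RNA. On that strand B1 T1 held 76 snoRNA peaks, B1 T2 held 186, B2 T1 held 230 and B2 T2 held 347, whereas the C2C12 libraries held 378 and 382. The other strand of the same genes held 0 peaks in 5 libraries and 2 peaks in C2C12 replicate 2. As a share of all peaks of a library, snoRNA peaks made up 0.937% in B1 T1 (95% exact Clopper-Pearson interval 0.739 to 1.17, counting error over peaks), 1.73% in B1 T2, and for B2 2.90% in T1 and 1.78% in T2, against 0.624% and 0.531% in C2C12. Every ASC library thus lay above both C2C12 libraries, and B1 T1 was the lowest of the ASC libraries by count and by share. With T1 and T2 averaged, the share was 1.84% ± 0.715 in ASC (SD, n = 2) and 0.577% ± 0.0663 in C2C12 (SD, n = 2); the exact two-sided permutation test gave p = 0.333, the smallest value that 2 against 2 can reach. The libraries also differ in depth, which cannot be read from lists of peaks: the ASC libraries held 57953 to 111729 reads in peaks and the C2C12 libraries 523067 and 607366, and the lowest number of reads listed was 4 to 5 in ASC and 6 in C2C12. The difference of the means was 1.26 percentage points, and 2.37 when peaks under 6 reads per bin were left out in every library; the part of total depth was not tested.

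**Figure D1:**
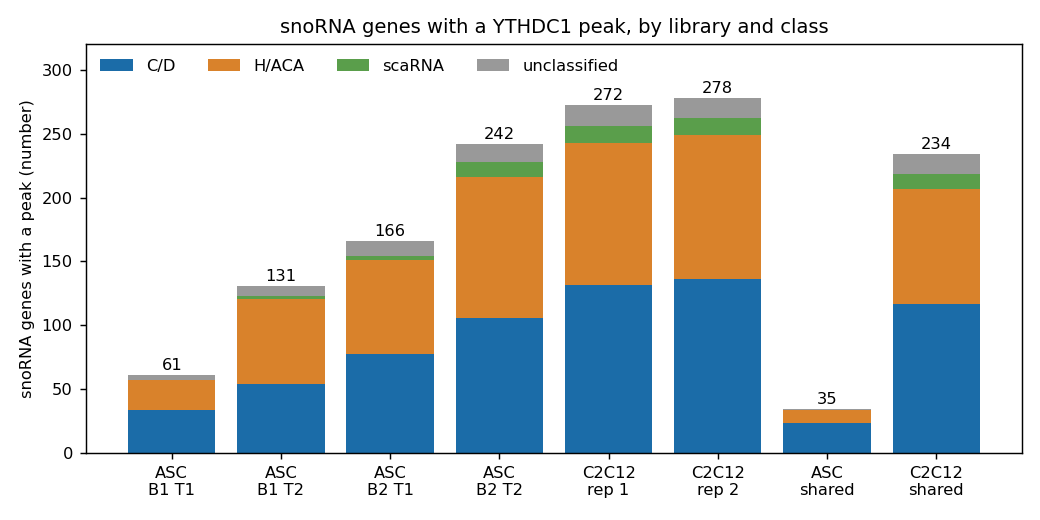
Number of snoRNA genes with at least 1 YTHDC1 peak on the strand of the RNA (vertical axis) in each of the 6 libraries and among the shared peaks of each cell type, with bars divided by snoRNA class. The count runs from 61 genes in ASC B1 T1 to 278 in C2C12 replicate 2, and 35 and 234 genes keep a shared peak in ASC and C2C12.

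A peak was called shared in C2C12 when a peak of replicate 1 overlapped one of replicate 2. In ASC it was shared when found in T1 and T2 of B1 and overlapping a peak found in T1 and T2 of B2. The place and reads of a shared peak are those of replicate 1 in C2C12 and of B1 T1 in ASC. C2C12 had 292 shared snoRNA peaks on 234 genes, or 15.1% of the annotated snoRNA genes, beside 16.9% of all annotated genes and 21.9% of protein-coding genes with a C2C12 shared peak. ASC had 40 on 35 genes, or 2.26%, beside 2.18% of all annotated genes and 2.47% of protein-coding genes. By this count snoRNA genes as annotated were near the background in both cell types. The count takes no account of gene length, and snoRNA genes are short, with annotated medians of 79 nt (C/D) and 130.5 nt (H/ACA). It therefore does not show whether peaks are denser on snoRNA genes than on other genes. The ASC count rests on B1, and on its library T1 in particular: 132 genes were found without B1 and 72 without B1 T1. Under a stricter p of 0.0001 the genes with a shared peak numbered 135 in C2C12 and 16 in ASC.

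Most of the annotated snoRNA genes belong to a few large families that carried few peaks. The 17 families with 10 or more annotated genes hold 1078 genes, and 42 of them (3.90%) had a C2C12 shared peak. The remaining 227 families hold 474 genes, of which 192 (40.5%) had one. SNORA17, the largest family, had a C2C12 shared peak on 2 of 612 genes. The SNORD115 and SNORD116 genes, imprinted clusters known from neurons, had no peak in any library on 137 and 27 genes, and SNORD113, an imprinted family of the Rian locus, had a single peak gene, in B2 T2, among 22. By contrast, SNORD50 had a C2C12 shared peak on 5 of 5 genes, SNORD14 on 4 of 4 and SNORD12 on 4 of 4. The 5 SNORD50 genes differ from one another in at most 2 of 72 bases. A read of one can fit the others, so they are not 5 separate sources.

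By class, box C/D genes carried 142 of the C2C12 shared snoRNA peaks, on 117 of 440 annotated genes (26.6%). H/ACA genes carried 119 on 90 of 1032 genes (8.72%, or 88 of 420, 21.0%, without SNORA17), scaRNA genes 12 on 11 of 46 (23.9%), and 16 of the 34 genes whose symbol names no class had one. In ASC the shared peaks lay on 24 C/D genes (5.45%), 10 H/ACA genes (0.969%), 0 scaRNA genes and 1 unclassified gene. Without SNORA17 the ASC share of H/ACA genes was 10 of 420 (2.38%). The C/D shares keep the SNORD115 and SNORD116 genes, which had no peak in any library. An ACA followed by 3 bases at the end of the gene (ACANNN, searched on the RNA strand) closed 70 of the 90 H/ACA genes with a C2C12 shared peak (77.8%) and 9 of the 10 with an ASC shared peak. The same letters closed 135 of the 883 H/ACA genes without a peak in any library (15.3%) and 24.0% of all annotated H/ACA genes. The SNORA17 genes, none of which ends this way, weigh on the latter shares: without them the values were 79.5% of genes with a C2C12 shared peak, 49.1% of genes without a peak and 59.0% of all. For C/D genes, the C box TGATGA stood in the first 20 nt of 58.1% of the genes with a C2C12 shared peak and 60.7% of all annotated ones, and the D box CTGA in the last 20 nt of 94.9% and 89.1%. GGAC, the core of the commonest m6A motif, was present in 70 of 234 genes with a C2C12 shared peak (29.9%). It stood in 16 of the 35 genes with an ASC shared peak (45.7%). Of these 35 genes 11 are U3 genes, among which GGAC was not counted separately. The U3 gene in Tmem62 printed above holds no GGAC. All 1552 genes, with the SNORA17 genes left in, gave 20.4%. The longer GGACT was present in 24 (10.3%) of the C2C12 genes and 3 (8.57%) of the ASC genes, beside 5.54% of all. These matches are descriptions of the gene sequences and do not show a methylated site.

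By the mean over the 4 ASC libraries, taken over the 35 genes with an ASC shared peak, U3 genes led. U3 is the C/D snoRNA that base-pairs with pre-rRNA for the cuts that release 18S rRNA, and 7 of the 10 genes with the highest ASC mean were U3 genes. The highest single ASC value was on an H/ACA gene without an ASC shared peak, the SNORA55 gene chr1:45803740-45803870, with 22 reads in B1 T2 and no peak in B1 T1. The U3 gene in an intron of Tmem62, printed above, held 20 reads per bin in each technical replicate of B1 and 18 and 17 in those of B2, a mean of 18.8 ± 1.5 (SD over 4 libraries), and 22 and 22 in C2C12. Its values thus stayed within a few reads in every library, with C2C12 above ASC. The 4 U3 genes in introns of Tex14 have one and the same sequence, so that a read of one fits all 4 and they count as 1 source. Their ASC means were 12.5 to 14.3 and their C2C12 means 13.8 to 20. The U3 gene chr1:39576378-39576591 had an ASC mean of 13.6 and a C2C12 mean of 9.75, and chr11:95893992-95894205 means of 13.4 and 17.8. Peaks on U3 genes followed the length of the copy: a C2C12 shared peak lay on 12 of the 17 genes of at least 190 nt and on 2 of the 30 shorter ones, and an ASC shared peak on 11 and 0.

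Several other RNAs of pre-rRNA processing carried peaks in all 6 libraries. Snord118, the U8 RNA of 28S and 5.8S rRNA maturation, held 7, 7, 7 and 13 reads per bin in ASC (T1 and T2 of B1, then of B2, as in all such lists) and 20 and 24 in C2C12, and the ranges of the cell types did not overlap; it had no ASC shared peak. A second gene named U8, on chromosome 12, held 5, 5, 10 and 7.5 in ASC and 12 and 15 in C2C12. Snord13, the U13 RNA, held 6, 15, 5.5 and 10 reads in ASC and 11.5 and 15 in C2C12, which overlap. Snora73a and Snora73b, the U17 RNAs in introns of Rcc1, had ASC means of 8.88 and 10.1 and C2C12 means of 9.5 and 11.1, and overlapped as well. Snord22 in Snhg1 held 8, 11.5, 8 and 4 against 11 and 11.7. The U14 genes Snord14a, Snord14c, Snord14d and Snord14e had C2C12 means of 10.5 to 15 and no peak in B1 T1.

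SNORD50, a C/D guide of 28S rRNA methylation, stood next to U3 in ASC. Its gene in 9330159M07Rik held 6, 15, 18 and 19 reads per bin in ASC and 9.33 and 15 in C2C12, so that B1 T1 was far below the other ASC libraries. The SNORD50 genes in Snhg5, 9430037G07Rik and Gm17683 had ASC means of 11.6, 10.8 and 10 and C2C12 means of 18, 17.5 and 22. As near copies, the SNORD50 genes can hold the same reads. The H/ACA guide Snora65 in Rpl12 held 11, 12, 16 and 18 in ASC and 12 and 7 in C2C12; its C2C12 values lay at or below those of 3 ASC libraries. The SNORA65 gene chr12:31943798-31943927 held 9, 14, 13 and 14 in ASC and 11 and 7 in C2C12. Also among the 15 highest of the genes with peaks in all 6 libraries were Snora61 in Snhg12 (ASC mean 10.8, C2C12 mean 17), a second SNORA55 gene in Pabpc4 (9.5 and 20.5) and Snord104 (12.2 and 14.5). Each of the 35 genes with an ASC shared peak had a peak in both C2C12 libraries, and 34 had a C2C12 shared peak (97.1% of the ASC list and 14.5% of the C2C12 list). The exception was Snord100 in Rps12, whose peaks in the C2C12 replicates, 9 reads each, did not overlap one another. Counted by peak, 29 of the 40 ASC shared snoRNA peaks (72.5%) overlapped a C2C12 shared peak, beside 61.4% of all ASC shared peaks.

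Of the 10 genes with the highest C2C12 mean, 1 had an ASC shared peak, the U3 gene chr10:39978273-39978484, with 30 and 30 reads per bin in C2C12 and 12, 8, 9.5 and 9.67 in ASC. SNORA55 in Pabpc4, an H/ACA gene, held 36 and 38 reads per bin in C2C12, no peak in B1 T1 and 8, 9 and 6.5 in the other ASC libraries. snoU105B in Ppan held 35 and 30 in C2C12, no peak in B1 and 5 and 9.5 in B2. The unclassified AC115823.1 held 32 and 31 in C2C12, no peak in B1 T1 and then 18, 6 and 9 in ASC. These C2C12 values lay above each ASC value of the same gene. Snord47 in Gas5 held 28 and 32, Snord16a in Rpl4 23 and 37, SNORD75 in Gas5 34 and 25, Snord37 in Eef2 29 and 28, and SNORD27 in Snhg1 27 and 27. Snord95 in Gnb2l1 differed most between the C2C12 replicates among these genes, with 45 and 14. Snora20 in Tcp1, chosen after its values were seen, held 22 and 21 in C2C12 and no peak in any ASC library. Of the 234 genes with a C2C12 shared peak, 36 had no ASC peak, Snora20 among them. The same share over all annotated genes was not computed, so this count is not read as a trait of snoRNA genes. Levels were not tested between cell types gene by gene, because depth differs and a gene without a listed peak has no value.

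**Figure D2:**
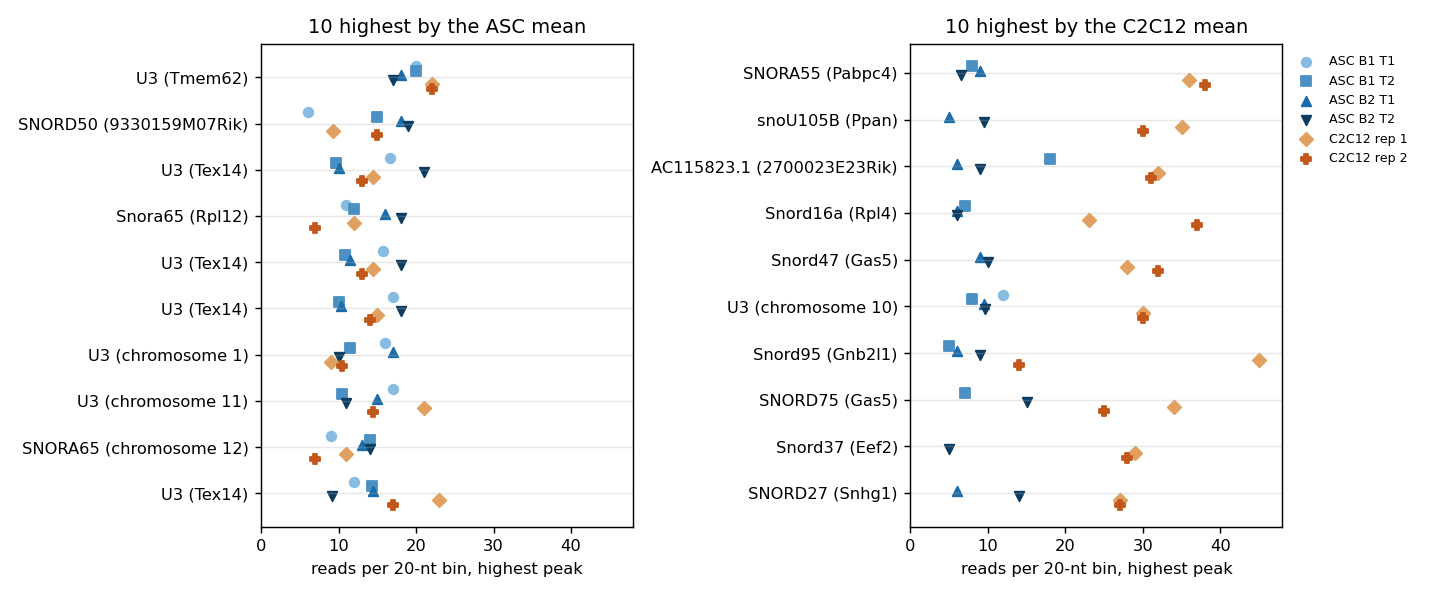
Reads per 20-nt bin in the highest peak of each gene (horizontal axis) in the 6 libraries, for the 10 genes with the highest ASC mean (left) and the 10 with the highest C2C12 mean (right); names in parentheses are host genes or, where there is none, chromosomes, and a missing point means that no peak was listed. U3 in Tmem62 sits at 17 to 22 in every library, whereas SNORA55 in Pabpc4 reaches 36 and 38 in C2C12 and 9 at most in ASC.

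The order of genes was closer between the C2C12 replicates than between other libraries. Across the 250 genes with a peak in both C2C12 libraries, the log2 reads per bin correlated with Pearson's r = 0.69 and Spearman's rho = 0.66. T1 and T2 gave r = 0.43 in B1 (55 genes) and 0.45 in B2 (152 genes), and the pairs of ASC with C2C12 libraries gave 0.05 to 0.39. These values are across genes, which are not independent replicates, and copies of one sequence share reads.

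A peak lay on 16 scaRNA genes in at least 1 library. The count was 13 in each C2C12 library, 12 in B2 T2, 3 in B2 T1, 2 in B1 T2 and 0 in B1 T1. B2 T2 thus stood near C2C12 by count only. In B2 T2 these genes held 4 to 5 reads per bin, and snoU89 6, while no peak under 6 reads is listed in C2C12. No scaRNA gene had an ASC shared peak, and 11 had a C2C12 shared peak: the genes annotated as SCARNA6, Scarna6, SCARNA16, Scarna13, Scarna17, SCARNA17, SCARNA18, snoU90, SCARNA1, snoU89 and Scarna10. The highest, SCARNA6 in Atg16l1, held 14 and 16 reads per bin in C2C12 and 4 in B2 T2, with no peak in the other ASC libraries. snoU89 in Phb2 had 2 shared peaks, of 8 and 10 reads at most in the C2C12 replicates. Scarna2 and SCARNA11 had peaks in both C2C12 replicates that did not overlap one another. Scarna3b, SCARNA15 and Scarna8 had a peak in B2 T2 alone, of 4, 5 and 5 reads.

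Host genes were mostly protein-coding. Of the 234 genes with a C2C12 shared peak, 147 (62.8%) lay within a protein-coding gene and 34 (14.5%) within a lincRNA. Of the rest, 7 lay within another processed transcript and 46 (19.7%) in no host. Over all annotated snoRNA genes these shares were 23.6%, 3.74%, 1.10% and 71.5%. The annotated shares include the 612 SNORA17 genes, of which 2 had a C2C12 shared peak, and were not computed without them. All shares are over genes with and without a host. The snoRNA lay in an intron of every annotated transcript of the host in 120 cases (51.3%). In 68 (29.1%) it overlapped an annotated exon. Over all annotated snoRNA genes, SNORA17 included, these shares were 22.4% and 6.06%. Ribosomal protein genes were 26 of the 109 hosts and held 46 of the 234 snoRNAs. The same shares over all annotated snoRNA genes and their hosts were not computed. Outside their snoRNAs, 53 of the 90 protein-coding hosts (58.9%) carried another C2C12 shared peak, beside 21.9% of protein-coding genes in general; the hosts' expression was not measured here. In ASC 1 of 22 hosts, Tex14, carried a shared peak outside the snoRNAs. Among protein-coding hosts this was 1 of 14 (7.14%), beside 2.47% of protein-coding genes in general.

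The hosts with the most bound snoRNAs were Gas5 and Snhg1, noncoding genes known chiefly as carriers of snoRNAs, and Eif4a2, Rpl4 and Taf1d, which encode a translation initiation factor, a ribosomal protein and a subunit of the RNA polymerase I factor SL1. Gas5 had a C2C12 shared peak on 8 of its 9 snoRNAs and 0 outside them, Snhg1 on 6 of 8, Eif4a2 on 5 of 5, Rpl4 on 5 of 5 and Taf1d on 5 of 8. All 5 hosts lie on the plus strand, and none had an ASC shared peak. Within Gas5 the snoRNAs differed widely: SNORD44 held 6 reads per bin in each C2C12 replicate and SNORD79 7 and 6, whereas SNORD75 held 34 and 25 and Snord47 28 and 32. In Eif4a2, Snord2 held 8 and 7, Snora81 21 and 20, and the 2 SNORA63 genes 27 and 23 and then 29 and 6. The snoRNAs of one host come from one transcript, so these are differences in peaks among RNAs with a common precursor.
In Rpl13a, a ribosomal protein gene, Snord32a held 10 and 11 reads, Snord33 11 and 12 and Snord35a 12.5 and 12 in C2C12, and Snord34 no peak in replicate 1 and 6 in replicate 2; Snord33 had the ASC shared peak of this host, with 7, 5, 5.67 and 9.

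**Figure D3:**
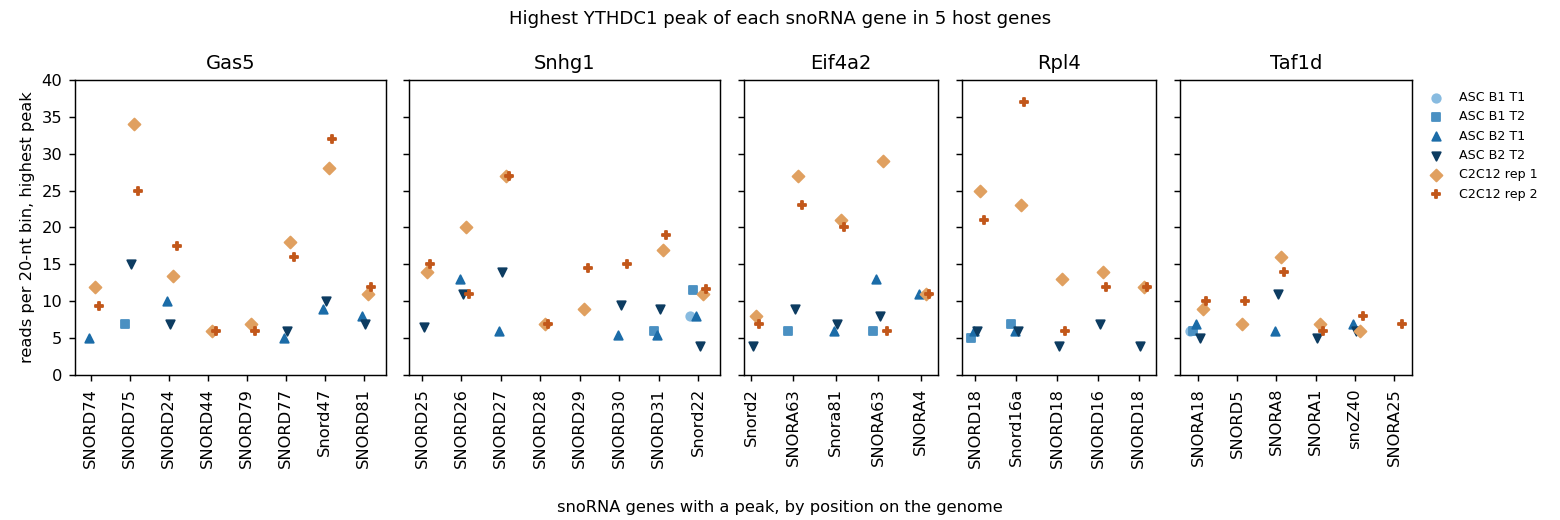
Reads per 20-nt bin in the highest peak of each snoRNA gene (vertical axis) in the 5 host genes with the most bound snoRNAs, in each library, for snoRNAs with a peak in at least 1 library. Within Gas5 the C2C12 values run from 6 in SNORD44 to 34 in SNORD75, and ASC values are fewer and lower.

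Along the RNA, the position of a peak depended on the strand of the genome on which the gene lies. In C2C12 the centre of a shared peak lay at a median of 25.4% of the gene length from the 5′ end on plus-strand genes (186 peaks, 147 genes) and at 54.6% on minus-strand genes (106 peaks, 87 genes). The bin that holds the first nucleotide of the RNA carried a shared peak in 74 of 147 plus-strand genes (50.3%, 95% exact interval 42.0 to 58.7) and in 0 of 87 minus-strand genes (upper limit 4.15%). The last nucleotide lay in a peak in 2 and 5 genes. The same direction held in each library: the median was 26.4% to 43.0% on plus-strand genes and 51.9% to 68.8% on minus-strand genes over the 6 libraries, so that the ranges did not overlap. For C/D genes in C2C12 the medians were 21.6% and 54.9%. For H/ACA genes they were 41.5% and 51.9%, with 2 maxima on each strand: at 0 to 10 nt (41.5% of genes covered) and 90 nt (34.0%) on plus-strand genes, and at 40 nt (40.5%) and 110 nt (38.9%) on minus-strand genes. With peaks on single-copy 20-nt sequences alone, the difference between strands was 34.0 percentage points, beside 29.2 with all peaks.

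**Figure D4:**
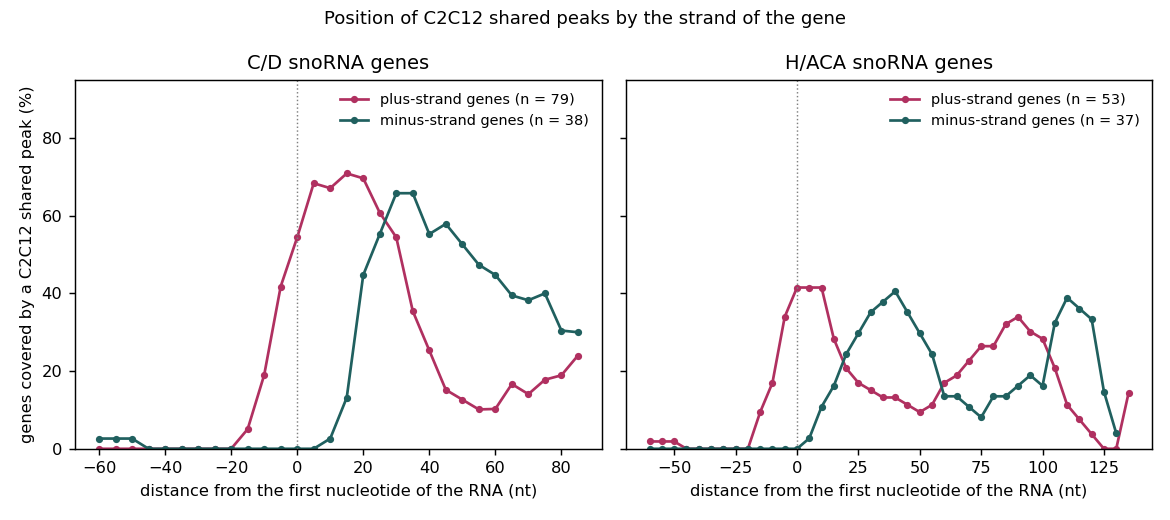
Percent of genes with a C2C12 shared peak (vertical axis) in which a shared peak covers the nucleotide at a given distance from the first nucleotide of the RNA (horizontal axis, nt, every 5 nt), for C/D (left) and H/ACA (right) genes on each strand; beyond 0 only genes long enough are counted. On C/D genes the highest value is 70.9% at 15 nt on plus-strand genes and 65.8% at 30 nt on minus-strand genes, and at the first nucleotide the values are 54.4% and 0%.

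The 2 SNORD50 genes of identical sequence show the shift on a single RNA. On the minus-strand copy in Snhg5 the C2C12 shared peaks covered nucleotides 19 to 38 and 59 onward. On the plus-strand copy in Gm17683 they covered the first 7 nucleotides, in a bin that begins upstream of the gene, and nucleotides 48 to 67. In ASC the shared peak lay on nucleotide 59 onward of the minus-strand copy and on nucleotides 8 to 27 of the plus-strand copy. A second minus-strand copy in Snhg5, with 1 base different, had 1 C2C12 shared peak, on nucleotides 7 to 66. Among U3 genes, C2C12 peak centres had a median at nucleotide 71.5 on 10 plus-strand genes and 77 on 4 minus-strand genes. Their ranges were 6 to 153 and 27 to 157. The U3 medians in ASC were 93 and 122. In Snord47 and SNORA55, both on the plus strand, the C2C12 peak covered the first 8 and the first 14 nucleotides, before the C box of Snord47 at position 12. On the minus-strand genes snoU6-77 and Snord33 it covered nucleotides 18 to 37 and 18 to 57, after their C boxes at positions 7 and 9. The end of a read that was assigned to a bin is not given in the sources used here, and its part in the shift was not tested; a position within about 30 nt of a gene's end is therefore not read as a crosslink site.

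In C2C12 peak height moved with the strand as well. The reads of C2C12 shared peaks here are those of replicate 1. On plus-strand genes the shared snoRNA peaks had a median of 11.8 reads per bin and a maximum of 45, and 59 of 186 had at least 15 reads. On minus-strand genes the median was 9, the maximum 18, and 5 of 106 had at least 15. All snoRNA peaks of replicate 2 had medians of 10 and 8 and maxima of 38 and 18. The 20 genes with the highest C2C12 mean were on the plus strand in 20 of 20 cases, so the list of highest peaks above holds the strand difference too. In ASC the medians of shared peaks, with the reads of B1 T1, were 11 (17 peaks) and 6 (23 peaks). Over all snoRNA peaks of a library they were nearly equal: 7 and 6 in B1 T1, 7 and 7 in B1 T2, 7 and 7 in B2 T1, and 6 and 6 in B2 T2. In C2C12 a difference was also seen away from snoRNAs, by the reads of replicate 1. Of the shared peaks on protein-coding genes, 980 of 11190 on plus-strand genes (8.76%) and 81 of 8044 on minus-strand genes (1.01%) had at least 15 reads.

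Near the snoRNAs but outside them, shared peaks were sparse. A C2C12 shared peak that touched no snoRNA gene lay 20 to 100 nt upstream of 4 of the 147 plus-strand genes and 4 of the 87 minus-strand genes, and 20 to 100 nt downstream of 6 and 3. Of the 292 C2C12 shared snoRNA peaks, 201 (68.8%) lay on a 20-nt sequence with a single copy in the genome, and of the 40 in ASC 20 did; reads were placed at up to 10 positions each, so peaks on repeated sequences can hold the same reads. With single-copy peaks alone, 171 genes in C2C12 and 12 in ASC had a shared peak.

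Peaks on snoRNA genes were found again more often than others in C2C12. Of the replicate 1 peaks on snoRNA genes, 292 of 378 (77.2%, 95% exact interval 72.7 to 81.4) overlapped a replicate 2 peak, beside 47.9% of the replicate 1 peaks away from snoRNA genes. Among peaks under 10 reads per bin the shares were 63.6% (56.6 to 70.2) on snoRNA genes and 40.6% elsewhere, and among peaks of 10 to 19 reads 93.0% (87.5 to 96.6) and 81.7%. At 20 reads or more 28 of 29 snoRNA peaks and 97.8% of the others were found again, with overlapping intervals. Between T1 and T2 of ASC B1 the shares were 72.4% and 72.5%, and of B2 80.4% and 64.0%. The intervals cover counting error over peaks only.

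**Figure D5:**
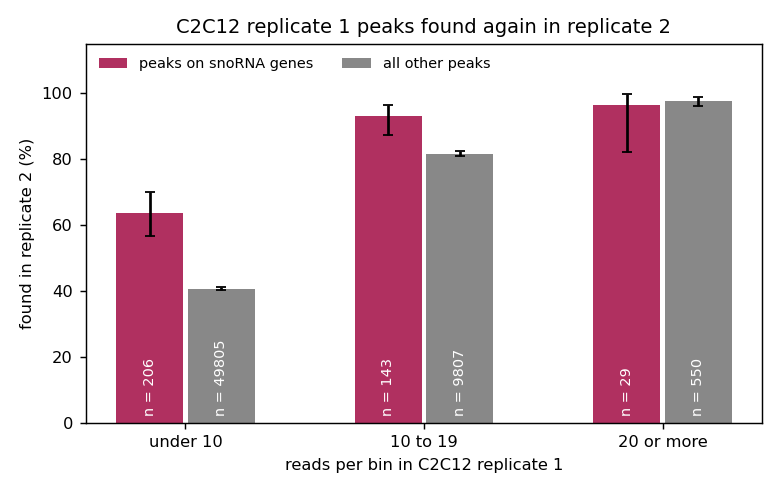
Percent of C2C12 replicate 1 peaks that overlap a replicate 2 peak (vertical axis), by reads per bin in replicate 1, for peaks on snoRNA genes and all other peaks; bars are shares, error bars 95% exact binomial intervals, and n the number of peaks. snoRNA peaks reach 63.6% against 40.6% under 10 reads and 93.0% against 81.7% at 10 to 19 reads.

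The share of snoRNA machinery genes with a shared peak was near the background. Of 29 genes for snoRNP proteins, assembly factors and processing enzymes, 8 (27.6%) had a C2C12 shared peak, beside 21.9% of protein-coding genes; 6 of 29 (20.7%) had one outside snoRNA genes. For Nop56 and Nop58, core proteins of the C/D particle, each of the 3 and 4 shared peaks lay on a snoRNA in the gene. The other 6 included Shq1 and Wrap53, which act in H/ACA assembly and Cajal body localization, and Phax, an export adaptor of small RNAs. The rest were Parn, Papd5 and Xrn2, enzymes that act on RNA ends. Phax had 3 shared peaks, Papd5 2 and the other genes 1 each. Fibrillarin (Fbl), dyskerin (Dkc1), Gar1, Nhp2 and Nop10 had 0. In ASC 1 of the 29 (3.45%), Shq1, had a shared peak, beside 2.47% of protein-coding genes.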

How the data were processed

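YTHDC1 LACE-seq of 6 libraries was analysed from lists of peaks. The authors trimmed reads with Cutadapt 1.15, removed matches to pre-rRNA, aligned the others to mm9 by Bowtie 1.2.3 (up to 10 positions, 2 mismatches), and called peaks per library with Piranha (20-nt bins, p threshold 0.001, named for ASCs). The deposited signal is the number of reads per bin, without normalization, and the deposited p-value is Piranha's within the library; it was used as a filter only. Depth is unknown, and the treatment of duplicate reads is not given in the sources used here.

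Overlaps were computed on NCBIM37 (mm9) and GENCODE vM1 in Python 3.11.15 (numpy 2.4.6, pandas 2.3.3, scipy 1.17.1, matplotlib 3.10.9) and tested on simulated data, where 5 of 5 checks gave the known answer. Classes were taken from gene symbols. The members, lists and rules were chosen with earlier results of these data known. Named were the 10 genes with the highest mean reads per bin in each cell type among genes with a shared peak, the 15 highest among genes with a peak in all 6 libraries, scaRNA genes, U3, U8, U13, U14, U17, U22 and the Rpl13a snoRNAs, and the 5 hosts with the most bound snoRNAs. Alternatives changed the overlap to 10 nt, p to 0.0001, the lowest reads to 6, the copies allowed, the strand and the replicates used. The labels call the C2C12 libraries biological replicates and the paper's text technical ones, so their spread may be technical. No test compared cell types beyond the share of peaks.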

Additional observations from a re-analysis of the deposited data

Results flagged for a closer look

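Of 35 snoRNA genes with an ASC shared peak, 4 had one ASC library far from the other 3 in the reads per bin of the highest peak, by Dixon's test at the 95% level, which chance alone gives in about 1 in 20 groups. Snora61 in Snhg12 held 18 in B2 T2 and 8 to 9 in the others. SNORD50 in Gm17683 held 6 in B1 T1 and 11 to 12 in the others. The U3 gene chr12:103491684-103491897 held 5 in B1 T1 and 11 to 12 in the others, and SNORA48 in Sec24a held 5 in B1 T1 and 7.5 to 8 in the others. No measure of a whole ASC library was flagged.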

How the results depend on the processing

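Of 68 values recomputed without leaving out a replicate, 43 counted as unmoved and 0 reversed. A gene count was unmoved within 1.5 times, a share of peaks within its 95% interval, a median within 1 SD between libraries, and the difference of shares between cell types if it kept its direction and its side of the test. That difference was 1.26 points, 1.86 under p of 0.0001, 2.37 with at least 6 reads per bin, 1.18 with 10 nt inside the gene and slightly below that with 20-nt sequences that occur once, with p = 0.333 by the exact permutation test in each. Under p of 0.0001 the genes with a shared peak were 135 (C2C12) and 16 (ASC), the C2C12 share of peaks 1.52%, the C2C12 median position 29.8%, the median reads 13 (C2C12) and 8.5 (ASC), and the found-again share 66.4%. With 20-nt sequences that occur once, the ASC genes were 12, the C2C12 share 1.17%, the median positions 28.8% (C2C12) and 40.6% (ASC), the C2C12 reads 11 and the strand difference 34.0 points. With at least 6 reads per bin the ASC genes were 22 and the ASC reads 8. With 10 nt inside the gene the C2C12 position was 37.6% and the strand difference 27.0 points. By gene strand, which was added after seeing the data, plus- and minus-strand genes gave positions of 25.4% and 54.6% (C2C12) and 38.8% and 66.3% (ASC). The reads of shared peaks were 11.8 and 9 (C2C12 replicate 1) and 11 and 6 (ASC B1 T1). The causes were not tested. Counted once per sequence, the genes were 227 and 31.

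Leaving out a replicate gave 272 to 278 genes, a share of 0.531% to 0.624%, a position of 38.6% to 39.1%, 9 reads in each case and a strand difference of 25.5 to 28.6 points in C2C12. With a C2C12 replicate left out no sharing is asked for, so these are the values of all peaks of the other replicate. They are not a check of the shared peaks. In ASC leaving out a replicate or a library, so that fewer libraries had to share a peak, gave 37 to 132 genes and a share of 0.935% to 3.62%. The ASC position was 38.8% to 60.8% and the reads 6 to 8. Without B1 T1 the ASC values were 72 genes and 3.51%, and without B2 46 genes; B1 T1 limits the ASC count. No paired analysis was possible because the replicate numbers mark separate cells of different kinds and no result rests on a test that could hold the number as a block. A gene without a listed peak is not shown to be unbound.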

Other observations

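Of 266 snoRNA genes with a peak in an ASC library, 27 (10.2%) had none in C2C12, a share not computed for other genes. Of these 27, 19 had a peak in a single ASC library and 22 in B2 T2, which also lists peaks of 4 reads. Among them were 4 copies of SNORA73 outside its Rcc1 and Rpsa loci, on chromosomes 13, 14, 14 and 15, with 4 to 9 reads per bin and peaks in 1 to 3 libraries. Over all libraries, 50 of the 327 genes with a peak had one in every library and 39 had one in a single library.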
